A study of Mus musculus with 9 samples.

Results

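The genes described here are 42 mouse genes for RNA-binding proteins, listed together as splicing regulators although some have other roles, given below. They stand apart from the lists of SR (serine- and arginine-rich) and hnRNP (heterogeneous nuclear ribonucleoprotein) genes that are set beside them, although Ptbp1 is also known as hnRNP I. The genes were taken by name, and every intron listed under one of these names in the authors' deposited table was taken. Of the 42 genes, 37 had introns in the table, which gave 200 of its 22228 introns, and Rbm4, Rbm12, Rbm15, Rbm42 and Rbm47 had none.

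Polyadenylated RNA of the mouse embryonic stem cell line v6.5 was sequenced with strand-specific paired-end reads. The 4 groups were cells given the Clk kinase inhibitor KH-CB19 and harvested at once (KH-CB19 0 h), cells given KH-CB19 and harvested after 2 h (KH-CB19 2 h), and cells given the solvent DMSO alone and harvested at once (DMSO 0 h) or after 2 h (DMSO 2 h). The labels name no genetic change in any group. Each group held 2 libraries, which the labels call independent biological replicates. An untreated library was not analysed here.

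The values were the authors' means over the 2 libraries of a group, so the spread between replicates is unknown, and the tests are the authors' own. At 0 h the table gave, for each intron and treatment, an observed mean read count, an expected mean read count and the log2 ratio of observed to expected. At 2 h it gave a normalised mean read count in each treatment but only for introns that carry the authors' detained class. A call means that the adjusted p there is under 0.05. Summed over all listed introns, the observed 0 h means came to 1002850 reads in KH-CB19 and 1286589 reads in DMSO, of which the 200 introns took 21360.5 and 28569.5 reads. The labels gave RNA integrity numbers of 8.8 to 9.4 for the 8 treated libraries. Of 20 symbols listed as markers of mouse embryonic stem cells, 17 had introns in the table.

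A detained intron is one that remains in a transcript which is otherwise spliced and polyadenylated, and which as a rule stays in the nucleus. Many genes for splicing regulators are known to be controlled through their own splicing, by retained introns or by exons that bring a premature stop codon, which marks the transcript for nonsense-mediated decay (NMD). Clk kinases phosphorylate SR proteins and thereby change which introns and exons are spliced.

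At 2 h, 4 detained introns of these genes were called lower in KH-CB19 than in DMSO and 1 higher. These are 10.0% and 2.5% of the 40 with a 2 h value, against 4.17% and 5.47% of all detained introns of the table. Of the called introns, 3 could be matched by length to a GENCODE M21 transcript of the same gene, so the sequences around them can be shown. The exons that meet once each of these introns is removed are given first, 5′ to 3′ in the sense of the gene, with 15 bases of the upstream exon in lower case and 15 bases of the downstream exon in capitals, from GENCODE M21 transcripts (GRCm38).
Rbm25 intron 27: taagccttaaattggGTGCTTCCAATAGTC
Rbm5 intron 8: atggaagccaatcagAAAAAATTGGTGATT
Rbm6 intron 20: tccgacctgcacaagCAAAACCTGGAAATT
All 3 of these introns lay between coding exons. For Rbm5 intron 8 a GENCODE transcript that keeps the intron also gives its ends. It is set here beside its neighbour intron 7, which was detained too but was not called at 2 h. The lines hold 15 exon and 15 intron bases at the start of the intron and 20 intron and 10 exon bases at its end, with the first and last dinucleotide of the intron in capitals.
Rbm5 intron 8 start: atggaagccaatcagGTtgcttcactcacc
Rbm5 intron 8 end: attgcttcttttttttacAGaaaaaattgg
Rbm5 intron 7 start: tgaagaggaaaacagGTgagagcttgcttg
Rbm5 intron 7 end: tatctgaatgctgtctctAGgtgtaagccg
The start of intron 8 shared 6 of 9 letters with CAGGTAAGT, the common form of the mouse 5′ splice site, and that of intron 7 shared 7. Only 25 introns of these genes had both ends readable from transcripts. In 24 of them the intron began with GT and in 1 with GC, and all 25 ended with AG. The median number of letters shared with CAGGTAAGT was 7 over the 8 detained and 6 over the 17 other introns, and no more is read from so few introns.

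Detained introns made up a somewhat larger share of these genes' introns than of the table's, a difference that was not tested. Of the 200 introns, 40 (20%) were classed as detained, against 15.5% of all introns of the table. The 40 lay in 25 of the 37 genes with introns in the table, where 2427 of all 7016 genes had a detained intron. These genes also had more introns each, 200 in 37 genes against 22228 in 7016, and more reads per intron. The part of either in the count of genes was not tested. Of the 25 genes, 12 had 1 detained intron, 11 had 2, and Rbm25 and Rbm39 had 3 each. In 12 genes with introns in the table none was detained. The SR and SR-related genes had 27 detained of 121 introns (22.3%) and the hnRNP and FET genes had 30 of 143 (21%).

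After 2 h of KH-CB19, 1 of the 40 detained introns rose and 4 fell in the authors' deposited table. The single rise is 2.5% of the 40, against 5.47% that rose among all detained introns of the table, and the 4 falls are 10.0%, against 4.17%. The falls came from 3 genes, since Rbm25 gave 2 of them. In the SR and SR-related genes 3 detained introns rose (11.1%) and 6 fell (22.2%), and in the hnRNP and FET genes 2 rose (6.67%) and 7 fell (23.3%). The median log2 ratio of KH-CB19 to DMSO over the 40 introns was -0.03 (SD over introns 0.53), and that over all detained introns of the table was -0.00 (SD 0.60). The RNA was measured in bulk and only intron reads were given at 2 h. Fewer cells holding the transcript, less transcript per cell and a smaller share of unspliced transcript therefore cannot be told apart.

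**Figure D1:**
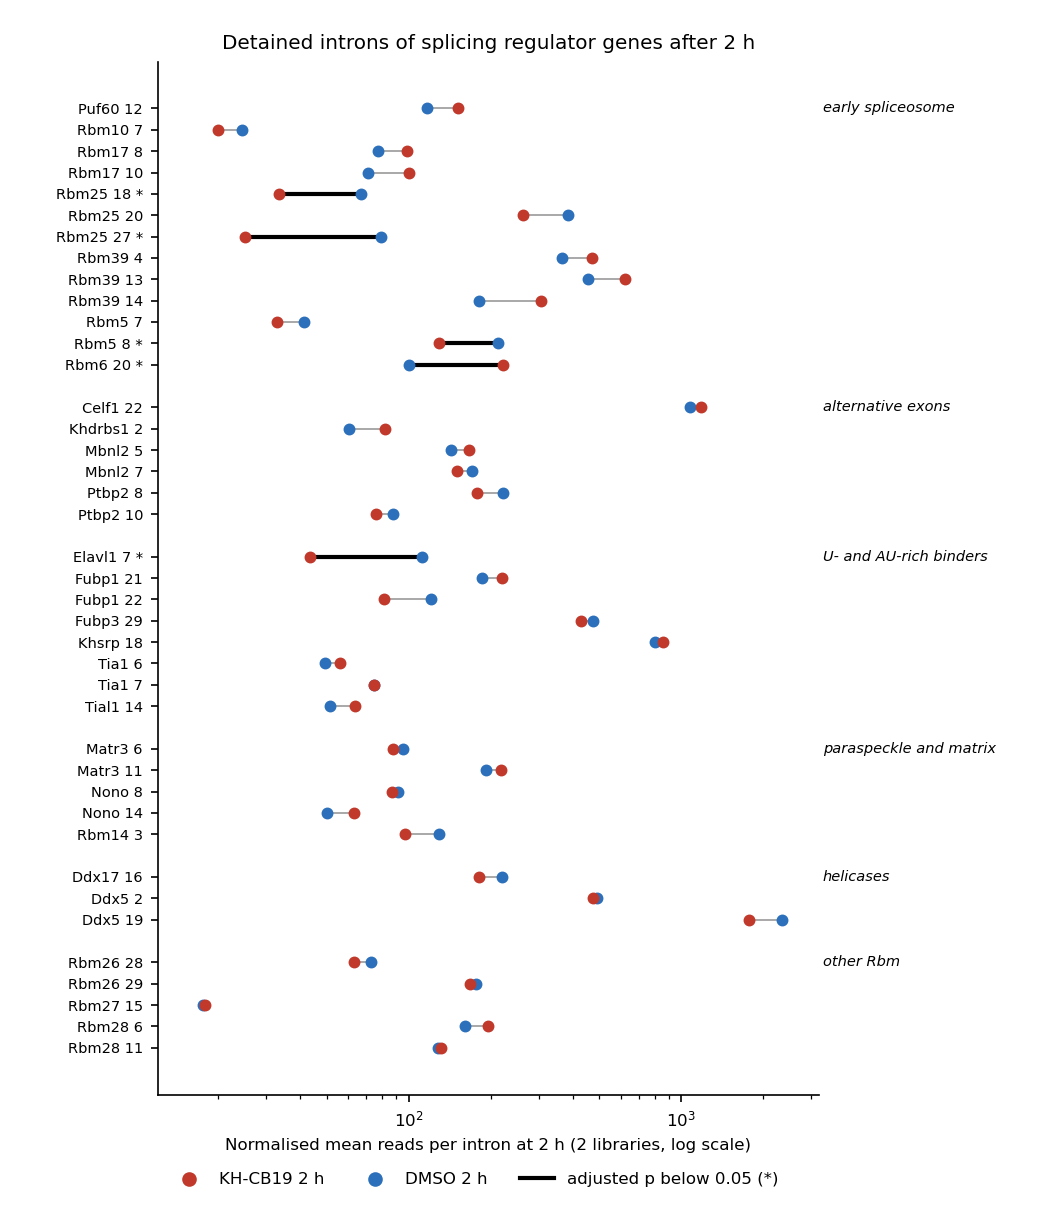
The authors' normalised mean read count at 2 h (x axis, log scale) of each of the 40 detained introns, grouped by the role of the gene, in KH-CB19 and in DMSO, joined by a line. The 5 introns called in the authors' deposited table are marked; Rbm25 intron 27 shows the longest line, with 25.2 reads in KH-CB19 and 79.5 in DMSO.

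The genes grouped here for contact with the early spliceosome held 4 of these 5 calls. This count was not tested and rests on roles assigned for this description, with earlier results of these data known. This group takes in Rbm5, Rbm6, Rbm10, Rbm17, Rbm25, Rbm39 and Puf60, with 55 introns, of which 13 were detained. Tia1 and Tial1, whose products also act at 5′ splice sites, were placed in another group, and none of their detained introns was called. Of the 13 detained introns 1 rose, 3 fell and 9 were not called, beside 5.47% that rose and 4.17% that fell among all detained introns of the table. The log2 ratios of the 13 lay above 0 in 7 introns and below 0 in 6, with a median of 0.35.

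Rbm25 encodes a protein that associates with the U1 snRNP, the particle which recognises 5′ splice sites, and regulates the splicing of apoptosis genes. Its intron 27 (mm9 chr12:85015614-85015993, plus strand, 380 bp) had a mean of 25.2 reads in KH-CB19 2 h and 79.5 reads in DMSO 2 h. This is the lowest ratio among the 40, a log2 ratio of -1.66 with an adjusted p of 0.000149 in the authors' deposited table. Intron 18 (mm9 chr12:85001629-85002156, plus strand, 528 bp) had 33.5 reads in KH-CB19 2 h and 66.8 reads in DMSO 2 h. It fell too, with a log2 ratio of -0.997 and an adjusted p of 0.0465 in the authors' deposited table, close to the threshold. The detained intron of the gene with the most reads, intron 20, had 262 reads in KH-CB19 2 h and 384 reads in DMSO 2 h, and its log2 ratio of -0.55 was not called (adjusted p 0.248 in the authors' deposited table). All 3 ratios of Rbm25 thus lay on the same side of 0, and 2 of them passed.

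At 0 h the same 3 introns of Rbm25 stood above their expected counts in both treatments. Intron 27 had 77.0 observed and 21 expected reads in KH-CB19 0 h, and 126.5 observed and 30.5 expected reads in DMSO 0 h. The log2 ratio of observed to expected was 1.87 in KH-CB19 (adjusted p 2.27e-06) and 2.05 in DMSO (adjusted p 2.16e-10) in the authors' deposited table. Observed reads of intron 27 were 3.67 times the expected in KH-CB19 0 h and 4.15 times in DMSO 0 h. Intron 20 had 371.5 observed and 64.5 expected reads in KH-CB19 0 h, and 538.5 observed and 93.5 expected reads in DMSO 0 h, and the log2 ratio was 2.53 in both.

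Rbm5, a regulator of exon choice in apoptosis genes and a component of early spliceosomes, had detained introns next to each other. Intron 8 (mm9 chr9:107659324-107662106, minus strand, 2783 bp) had 129 reads in KH-CB19 2 h and 212 reads in DMSO 2 h. It fell, with a log2 ratio of -0.72 and an adjusted p of 0.0249 in the authors' deposited table. Intron 7 had 32.9 reads in KH-CB19 2 h and 41.5 reads in DMSO 2 h, and its log2 ratio of -0.33 was not called (adjusted p 0.719 in the authors' deposited table). The pair pointed the same way, though intron 7 held far fewer reads. At 0 h intron 8 had 148.5 observed and 36.0 expected reads in KH-CB19 and 242.0 observed and 51.5 expected reads in DMSO, with log2 ratios of 2.04 and 2.23.

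Rbm6, a close relative of Rbm5 that lies near it on the same chromosome and strand, moved the other way. Intron 20 of Rbm6 (mm9 chr9:107681980-107684940, minus strand, 2961 bp) had 221 reads in KH-CB19 2 h and 101 reads in DMSO 2 h. It rose, with a log2 ratio of 1.14 and an adjusted p of 8.61e-05 in the authors' deposited table. It was the only one of the 40 detained introns that rose. At 0 h the observed mean was 87.0 reads against 18.0 expected in KH-CB19 and 134.5 against 25.5 expected in DMSO, with 2.27 and 2.40 as log2 ratios in the authors' deposited table. The excess in KH-CB19 0 h was 0.916 times that in DMSO 0 h, and its 95% counting interval of 0.753 to 1.11 includes equality. The difference between the 2 introns, of Rbm5 and of Rbm6, was not itself tested.

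**Figure D2:**
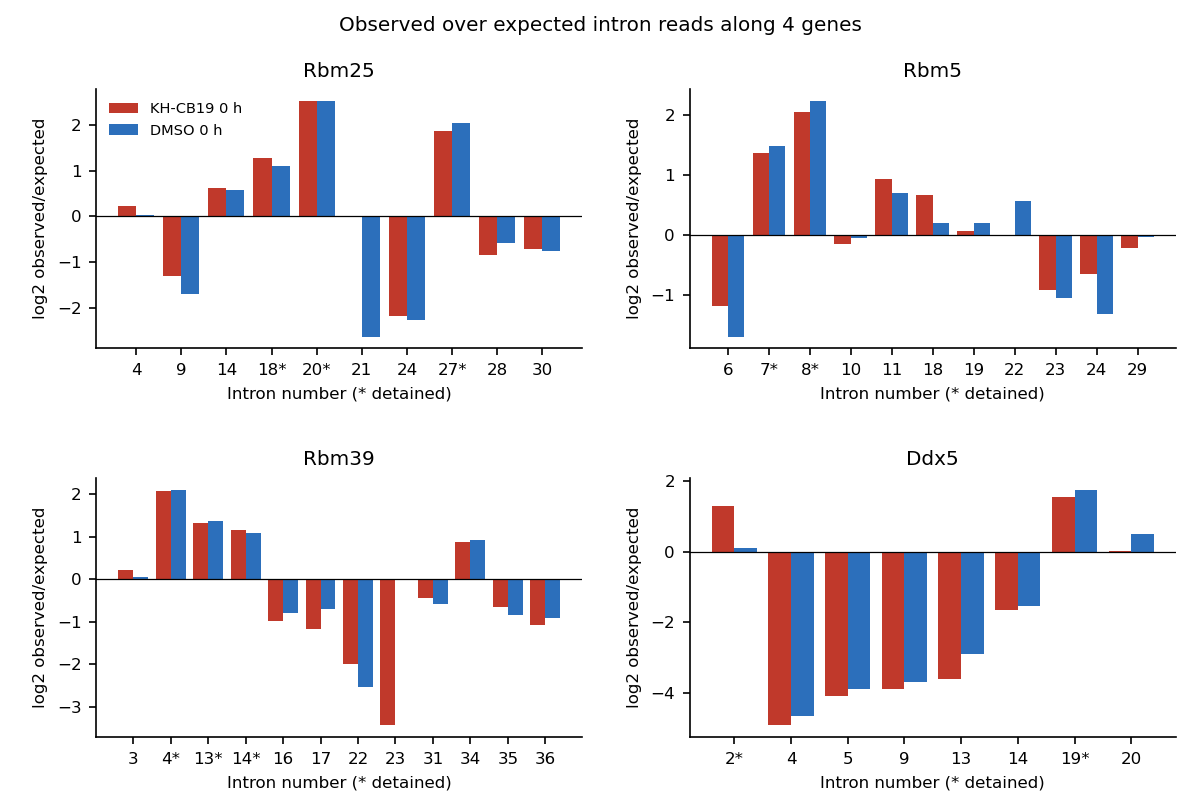
Log2 ratio of observed to expected reads at 0 h for the introns of Rbm25, Rbm5, Rbm39 and Ddx5 in the order of the authors' intron numbers, with the KH-CB19 bar left of the DMSO bar; detained introns carry an asterisk and a missing bar means no value. The detained introns stand above 0 among others that lie on both sides of it, and in Ddx5 intron 2 the KH-CB19 bar reaches 1.30 while the DMSO bar is at 0.11.

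Rbm39, which resembles the large subunit of the splicing factor U2AF, gave 3 detained introns that all had more reads in KH-CB19, though none was called. Intron 13 had 620 reads in KH-CB19 2 h and 454 reads in DMSO 2 h, a log2 ratio of 0.45 with an adjusted p of 0.434 in the authors' deposited table. Its intron 14 had 306 reads in KH-CB19 2 h and 182 reads in DMSO 2 h, a log2 ratio of 0.75, which is the highest ratio among the introns not called (adjusted p 0.382 in the authors' deposited table). Intron 4 had 471 reads in KH-CB19 2 h and 365 reads in DMSO 2 h, with a log2 ratio of 0.37 and an adjusted p of 0.248 in the authors' deposited table. Each of the 3 matched by length an intron of transcripts that GENCODE marks as NMD targets, and of no protein-coding transcript; introns 13 and 14 also occur in a transcript of the class retained intron. The exons on either side of intron 4 meet as shown here, with the downstream exon in capitals.
Rbm39 intron 4: actgtcaatcataagGGCGAGATGTGTGAC
Other introns of Rbm39 were below expected, such as intron 22, with 33.5 observed and 133.0 expected reads in KH-CB19 0 h, and 36.0 observed and 209.0 expected reads in DMSO 0 h.

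Rbm17 encodes SPF45, which takes part in 3′ splice site choice, and Puf60 encodes a partner of U2AF at the polypyrimidine tract. Rbm17 intron 8 had 98.6 reads in KH-CB19 2 h and 77.1 in DMSO 2 h, and intron 10 had 101 in KH-CB19 2 h and 71.0 in DMSO 2 h. Neither was called, at 0.528 and 0.289 for the adjusted p in the authors' deposited table. Puf60 intron 12, the shortest detained intron of these genes at 110 bp, had 152 reads in KH-CB19 2 h and 117 reads in DMSO 2 h (adjusted p 0.38 in the authors' deposited table). Puf60 intron 12 had the greatest excess over expected of the 40 at 0 h: 144.5 observed and 9.0 expected reads in KH-CB19, and 140.0 observed and 9.5 expected reads in DMSO. Its log2 ratio was 4.01 in KH-CB19 (adjusted p 1.33e-25) and 3.88 in DMSO (adjusted p 1.32e-24) in the authors' deposited table. Rbm10, a further relative of Rbm5, had 20 reads in KH-CB19 2 h and 24.5 reads in DMSO 2 h in its intron 7 (adjusted p 0.847 in the authors' deposited table), too few to set a small difference apart.

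Rbm5 intron 8 and Rbm10 intron 7 hold the same place in their genes, as does Rbm6 intron 8, a match noticed after the sequences were seen. Each was intron 6 of the longest matched coding transcript, of 24 in Rbm5, 23 in Rbm10 and 20 in Rbm6. The exon junctions of Rbm10 and Rbm6 can be set beside that of Rbm5 intron 8 given earlier, with the downstream exon in capitals (GENCODE M21, GRCm38).
Rbm10 intron 7: atggaagccaatcagCACTCCCTCAACATC
Rbm6 intron 8: atggaggccaaccagGGAACTCTAATGATC
The 15 exon bases before the intron were the same in Rbm5 and Rbm10. The introns were detained in Rbm5 and Rbm10 and not in Rbm6, where intron 8 had 65.0 observed and 60.0 expected reads in KH-CB19 0 h, and 105.0 observed and 85.5 expected reads in DMSO 0 h. The Rbm6 intron that rose was thus another one than the counterpart of the Rbm5 intron that fell.

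The group of regulators that bind defined motifs beside alternative exons gave 6 detained introns, none of them called at 2 h. It holds Ptbp1, Ptbp2, Mbnl1, Mbnl2, Celf1, Rbfox2, Esrp1, Khdrbs1 and Qk, with 38 introns. Celf1, which binds GU-rich RNA, had the one with the most reads: intron 22 had 1181 reads in KH-CB19 2 h and 1077 reads in DMSO 2 h, a log2 ratio of 0.13 with an adjusted p of 0.754 in the authors' deposited table. Khdrbs1, the gene for the STAR protein Sam68, had 81.7 reads in KH-CB19 2 h and 60.7 reads in DMSO 2 h in intron 2. The introns of Ptbp2, the neural paralogue of Ptbp1, had 178 (intron 8) and 76.2 reads (intron 10) in KH-CB19 2 h, and 222 and 87.8 reads in DMSO 2 h. Mbnl2, a muscleblind protein, had 166 reads (intron 5) and 151 reads (intron 7) in KH-CB19 2 h, and 143 and 171 reads in DMSO 2 h. The log2 ratios of the 6 introns ran from -0.32 to 0.43.

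Ptbp1, the polypyrimidine tract-binding protein of non-neural cells, had no detained intron. Its highest ratio was in intron 18, with 114.5 observed and 63.5 expected reads in KH-CB19 0 h, and 104.5 observed and 61.5 expected reads in DMSO 0 h. The log2 ratio was 0.85 in KH-CB19 (adjusted p 0.00799) and 0.76 in DMSO (adjusted p 0.0191) in the authors' deposited table. Ptbp2 intron 2 stood at the other end, with 10.0 observed and 128.0 expected reads in DMSO 0 h, a log2 ratio of -3.68.

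The binders of U-, AU- or UG-rich RNA gave 1 fall among 8 detained introns, beside 4.17% that fell among all detained introns of the table. With so few introns no difference from that share is read. Elavl1 encodes HuR, which binds AU-rich elements and stabilises messenger RNA. Elavl1 intron 7 (mm9 chr8:4295562-4300414, minus strand, 4853 bp) had 43.7 reads in KH-CB19 2 h and 112 reads in DMSO 2 h. It fell, with a log2 ratio of -1.36 and an adjusted p of 0.0213 in the authors' deposited table. At 0 h the same intron had 116.5 observed and 40.5 expected reads in KH-CB19, and 145.0 observed and 52.0 expected reads in DMSO, with 1.52 and 1.48 as log2 ratios in the authors' deposited table. The ratios to expected thus stood close together at 0 h, and the read means stood apart at 2 h. These are unlike measures, since no expected count was given at 2 h, and a change between the times was not tested.

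The other 7 detained introns of this group were not called. Fubp1, which binds a single-stranded element upstream of Myc, stood at 0.25 on the log2 scale in intron 21 and at -0.57 in intron 22, which is the lowest among the introns not called. Fubp1 intron 22 had 81.1 reads in KH-CB19 2 h and 121 reads in DMSO 2 h (adjusted p 0.189 in the authors' deposited table). Fubp1 intron 21 had 220 reads in KH-CB19 2 h and 185 reads in DMSO 2 h. Neighbouring introns of a gene therefore did not always share a sign. Khsrp, a KH-domain protein of AU-rich element decay, had 854 reads in KH-CB19 2 h and 803 reads in DMSO 2 h in intron 18. Its relative Fubp3 had 428 reads in KH-CB19 2 h and 475 reads in DMSO 2 h in intron 29. Tia1 and Tial1, U-rich binders that help U1 snRNP at weak 5′ splice sites, ranged in log2 ratio from -0.01 to 0.31. Tardbp, the gene for TDP-43, had no detained intron and so no 2 h value.

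The paraspeckle and nuclear matrix genes had 5 detained introns, in Nono, Matr3 and Rbm14, and none was called. Nono intron 8 had 86.8 reads in KH-CB19 2 h and 91.4 reads in DMSO 2 h, and Nono intron 14 had 63.0 in KH-CB19 2 h and 50.1 in DMSO 2 h. Matr3 intron 11 had 219 reads in KH-CB19 2 h and 193 reads in DMSO 2 h, and Matr3 intron 6 had 87.8 in KH-CB19 2 h and 95.5 in DMSO 2 h. Rbm14 intron 3 had 96.6 reads in KH-CB19 2 h and 129 reads in DMSO 2 h, a log2 ratio of -0.42 with an adjusted p of 0.38 in the authors' deposited table. The DEAD-box helicases Ddx5 and Ddx17 gave 3 detained introns. Ddx5 intron 19, which had the most reads of the 40, not scaled to length, had 1779 reads in KH-CB19 2 h and 2350 reads in DMSO 2 h. Its log2 ratio was -0.40, and its adjusted p of 0.12 was the lowest among the 35 introns not called in the authors' deposited table. Ddx17 intron 16 had 181 reads in KH-CB19 2 h and 220 reads in DMSO 2 h, and Ddx5 intron 2 had 474 reads in KH-CB19 2 h and 492 reads in DMSO 2 h.

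Among the remaining RBM genes 5 introns were detained, in Rbm26, Rbm27 and Rbm28, with log2 ratios between -0.21 and 0.27 and none called. The largest by reads were Rbm28 intron 6, with 195 reads in KH-CB19 2 h and 162 reads in DMSO 2 h, and Rbm26 intron 29, with 168 in KH-CB19 2 h and 177 in DMSO 2 h. Rbm27 intron 15 was the weakest, with 18.0 reads in KH-CB19 2 h and 17.7 reads in DMSO 2 h. Over all roles the 35 introns not called ran from -0.57 to 0.75 in log2 ratio, with 18 above 0 and 17 below. A ratio that missed the threshold does not show that the treatments acted alike on that intron. Of the 13 genes with more than 1 detained intron, 8 had all their ratios on the same side of 0 and 5 had ratios on both sides. In 11 of the 13 there were only 2 such introns, and the same share was not computed over the table. No agreement within genes is read from these counts.

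The comparison of observed with expected reads at 0 h covers the introns that were not detained as well. In KH-CB19 0 h, 60 of 184 introns with a value were above expected (32.6%, against 27.6% in the table) and 50 were below (27.2%, against 8.93%). In DMSO 0 h, 59 of 196 were above (30.1%, against 28.2%) and 66 were below (33.7%, against 10.9%). The share below expected was thus well over that of the table in both treatments, while the share above was near it. These genes also had more reads, with a median expected mean of 42.5 reads in KH-CB19 0 h against 18.0 reads over all introns, and 51.75 in DMSO 0 h against 21 over all introns. The part of read depth in the number of calls was not tested. The median log2 ratio of observed to expected was 0.09 in KH-CB19 0 h and -0.03 in DMSO 0 h, against 0.60 and 0.53 over all introns.

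Most of the calls were made in both treatments. Of the 180 introns with both values 55 were above expected in both (30.6%, against 26.1% of the 18080 such introns of the table) and 47 were below in both (26.1%, against 8.21%). A further 10 were below in DMSO 0 h only (5.56%, against 1.89% in the table) and 1 in KH-CB19 0 h only (0.556%, against 0.691%). Above expected in DMSO 0 h only were 4 (2.22%, against 6.42%), and in KH-CB19 0 h only 5 (2.78%, against 2.31%). Calls above in one treatment and below in the other numbered 0, as over all 18080 introns of the table. The SR and SR-related genes had 32 of 110 introns above (29.1%) and 42 below (38.2%) in KH-CB19 0 h, and 36 of 120 above (30.0%) and 50 below (41.7%) in DMSO 0 h. The hnRNP and FET genes had 30 of 131 above (22.9%) and 56 below (42.7%) in KH-CB19 0 h, and 33 of 140 above (23.6%) and 64 below (45.7%) in DMSO 0 h. A large share of introns below expected was thus seen in all 3 lists, and it was not tested between them.

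**Figure D3:**
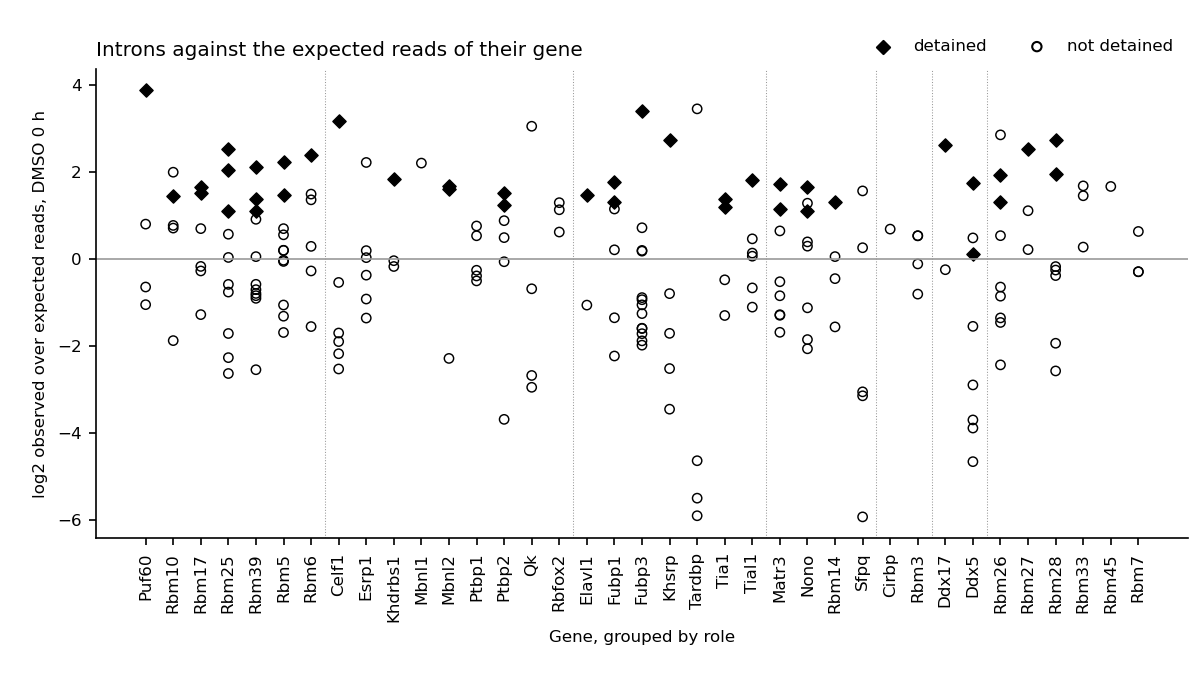
Log2 ratio of observed to expected reads in DMSO at 0 h (y axis) for each intron of the 37 genes (x axis, by role), with detained introns as diamonds. Detained introns lie between 0.11 and 3.88, and other introns of the same genes reach down to -5.92 in Sfpq.

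The strongest contrasts between introns of the same gene were in Sfpq and Tardbp, both without a detained intron. Sfpq encodes a paraspeckle protein and partner of Nono. Sfpq intron 4 had 11.5 observed and 592.0 expected reads in KH-CB19 0 h, and 13.5 observed and 816.5 expected reads in DMSO 0 h, the lowest ratio of all 196 introns in DMSO (log2 -5.92). Sfpq intron 14 (mm9 chr4:126710050-126713051, plus strand, 3002 bp) had 2179.5 observed and 716.5 expected reads in KH-CB19 0 h, and 2933.0 observed and 987.5 expected reads in DMSO 0 h. Its log2 ratio was 1.60 in KH-CB19 (adjusted p 4.46e-19) and 1.57 in DMSO (adjusted p 6.48e-20) in the authors' deposited table. TDP-43, the product of Tardbp, is known to bind the 3′ untranslated region (UTR) of its own transcript, where alternative introns are spliced. Tardbp intron 18 (mm9 chr4:147991153-147991674, minus strand, 522 bp) matched by length the last intron of a GENCODE transcript, within its 3′ UTR. In 5 other GENCODE transcripts the same stretch lies inside an exon. The intron had 2984.0 observed and 274.0 expected reads in KH-CB19 0 h, and 3971.5 observed and 362.0 expected reads in DMSO 0 h. Its log2 ratio was 3.44 in KH-CB19 (adjusted p 4.49e-74) and 3.46 in DMSO (adjusted p 8.34e-81) in the authors' deposited table. Tardbp intron 3 had 15.0 observed and 786.0 expected reads in KH-CB19 0 h, and 17.5 observed and 1039.5 expected reads in DMSO 0 h.

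The ends of some introns near the 3′ end of their gene, all far above expected, are shown for Tardbp, for Celf1 intron 22, which is the last intron of its matched transcript and also lies in the 3′ UTR, and for Fubp3 intron 29, the last of its transcript. Each start line has 15 exon and 15 intron bases and each end line 20 intron and 10 exon bases, with the dinucleotides at the intron's ends in capitals, from GENCODE M21 transcripts (GRCm38).
Tardbp intron 18 start: gctgcgtctttgacgGTgggtgttccattt
Tardbp intron 18 end: gcttgtggtgtgctttgcAGgagaacttgg
Celf1 intron 22 start: tgagaagatcttctgGTaagtgggggagga
Celf1 intron 22 end: tggtttgtttttttttctAGattcctgccg
Fubp3 intron 29 start: caggcccacagccagGTctgtagccagtcc
Fubp3 intron 29 end: ccctctccctccccccacAGgagcagtaga
The start of Tardbp intron 18 shared 5 of 9 letters with CAGGTAAGT and that of Celf1 intron 22 shared 8. GENCODE also holds transcripts that keep these stretches inside an exon, 5 for Tardbp, 2 for Celf1 and 2 for Fubp3. Those for Tardbp and Celf1 include protein-coding ones, and the ends of the Fubp3 intron were read from one of the class retained intron. The part of such transcripts in the reads over expected was not tested, so nothing is read from these matches. Celf1 intron 22 had 1047.5 observed and 120.5 expected reads in KH-CB19 0 h, and 1427.0 observed and 158.5 expected reads in DMSO 0 h. Fubp3 intron 29 had 455.0 observed and 41.0 expected reads in KH-CB19 0 h, and 528.0 observed and 49.5 expected reads in DMSO 0 h. The log2 ratios were 3.12 and 3.17 for Celf1 and 3.47 and 3.42 for Fubp3, in KH-CB19 and in DMSO. Of the matched introns with a place in a coding transcript, 4 of 24 detained introns (16.7%) were the last one, against 11 of 138 others (7.97%), and this difference was not tested.

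Of the 160 introns not classed as detained, 11 in 8 genes were above expected in both treatments at 0 h, and at least 2-fold so, and had no 2 h value. This is 6.88% of the 160, near the 6.33% (1188 of 18774) in the table. They were Esrp1 intron 17, Qk intron 10, Rbfox2 introns 7 and 13, Rbm26 intron 25, Rbm33 introns 8 and 18, Rbm6 introns 4 and 18, Sfpq intron 14 and Tardbp intron 18, and those of Rbm33 and Rbm6 were named after their values were seen. Qk, a STAR protein, had 150.5 observed and 20.5 expected reads in intron 10 in KH-CB19 0 h, and 249.5 observed and 30.0 expected reads in DMSO 0 h. Rbm26 intron 25 had 290.5 observed and 36.0 expected reads in KH-CB19 0 h, and 362.5 observed and 50 expected reads in DMSO 0 h, more than any detained intron of that gene. Esrp1, a regulator of epithelial splicing, had 104.5 observed and 24.5 expected reads in intron 17 in KH-CB19 0 h, and 142.5 observed and 30.5 expected reads in DMSO 0 h. Whether KH-CB19 changed these introns at 2 h cannot be read from the values used here.

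The detained introns themselves were nearly all called above expected, which bears on the class and is no separate finding. In KH-CB19 0 h 39 of 40 passed, the exception being Rbm10 intron 7 (adjusted p 0.0941 in the authors' deposited table). In DMSO 0 h 39 of 40 passed, the exception being Ddx5 intron 2.

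Ddx5 intron 2 (mm9 chr11:106649774-106650095, minus strand, 322 bp) differed between the treatments already at 0 h. The DEAD-box helicase that Ddx5 encodes unwinds RNA in splicing and transcription. The intron had 669.5 observed and 271.5 expected reads in KH-CB19 0 h, and 365.5 observed and 338.5 expected reads in DMSO 0 h. Its log2 ratio of observed to expected was 1.30 in KH-CB19 (adjusted p 7e-06) and 0.11 in DMSO (adjusted p 0.701) in the authors' deposited table. The excess in KH-CB19 was 2.28 times that in DMSO, with a 95% exact binomial interval of 2.09 to 2.50 that covers counting error only and takes the expected counts as exact. Without values per library it cannot be said whether both KH-CB19 libraries showed it. Ddx5 intron 19, also detained, had 1866.5 observed and 635.5 expected reads in KH-CB19 0 h, and 2665.0 observed and 792.5 expected reads in DMSO 0 h, log2 ratios of 1.55 and 1.75. In introns 19 and 20 the excess differed the other way: in KH-CB19 it was 0.873 times that in DMSO in intron 19 (counting interval 0.837 to 0.911) and 0.723 times in intron 20 (0.636 to 0.821), which was named after its values were seen. The expected counts of the introns of this gene moved nearly in step between the treatments, and how they were made is unknown. The shifts in introns 19 and 20 may thus not be separate from that in intron 2, which the intervals do not take into account. Ddx5 intron 20 had 193.5 observed and 190.5 expected reads in KH-CB19 0 h, not called, and 333.0 observed and 237.0 expected reads in DMSO 0 h, called above at an adjusted p of 0.0356 in the authors' deposited table. At 2 h the log2 ratio of intron 2 between the treatments was -0.05, as given above. Ddx5 intron 4 showed how few reads a spliced intron of this gene kept, with 20 observed and 603.5 expected reads in KH-CB19 0 h, and 30.0 observed and 753.0 expected reads in DMSO 0 h.

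**Figure D4:**
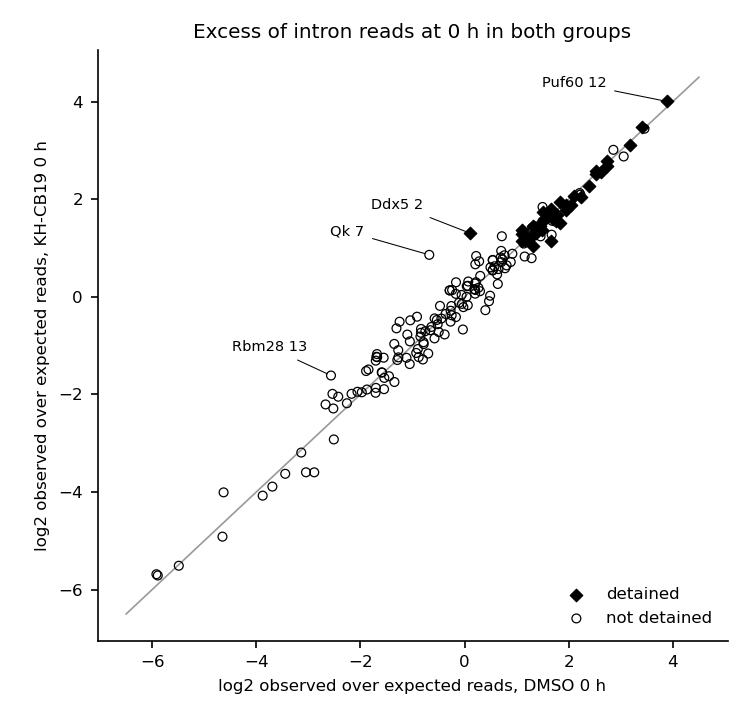
Log2 ratio of observed to expected reads at 0 h in KH-CB19 (y axis) against that in DMSO (x axis) for the 180 introns with both values, with the line of equality. Most points lie near the line, and Ddx5 intron 2 lies above it at 1.30 in KH-CB19 and 0.11 in DMSO; Qk intron 7, labelled after its values were seen, rests on observed means of 24.5 reads in KH-CB19 and 12.5 in DMSO.

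For 70 introns the observed mean was at least 50 reads in both treatments. Their log2 ratio in KH-CB19 minus that in DMSO had an SD over introns of 0.20. Over the 4290 such introns of the table the SD was 0.18. Without Ddx5 intron 2, the largest difference of the 70, their SD was 0.14, which is unlike the table's, where no intron was left out. Without Ddx5 intron 2 the difference ran from -0.47 in Ddx5 intron 20 to 0.24, and that of Ddx5 intron 2 was 1.19, the largest increase among the 4290. Rbm28 encodes a nucleolar protein, and its intron 13, below expected in both treatments, had 17 observed and 52.0 expected reads in KH-CB19 0 h, and 12.5 observed and 74.0 expected reads in DMSO 0 h, log2 ratios of -1.61 and -2.57. With so few reads a difference between these ratios was not tested.

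The cold-inducible genes Rbm3 and Cirbp, which encode small glycine-rich RNA-binding proteins, had 5 introns and none detained. Rbm3 intron 9 was below expected in both treatments, with 39.0 observed and 95.0 expected reads in KH-CB19 0 h (log2 -1.28, adjusted p 0.00022) and 62.0 observed and 108.0 expected reads in DMSO 0 h (log2 -0.80, adjusted p 0.0129) in the authors' deposited table. Rbm3 intron 3 had 118.5 observed and 70.5 expected reads in KH-CB19 0 h, and 116.5 observed and 80.0 expected reads in DMSO 0 h. It was called in KH-CB19 (adjusted p 0.0184) and not in DMSO (adjusted p 0.0882) in the authors' deposited table, at log2 ratios of 0.75 and 0.54, and the difference between them was not tested.

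Within a gene the ratio of the KH-CB19 to the DMSO expected count hardly varied from intron to intron (SD at most 0.054 on the log2 scale over 33 genes), so each gene can be given 1 ratio. How the expected counts were made is not known, so this ratio is not read as a change in the level of the gene's transcript. Over 5367 genes the median log2 ratio of expected counts, KH-CB19 over DMSO at 0 h, was -0.34 (SD over genes 0.21), and the values of single genes are given relative to that median. Of the 34 genes with a value 9 lay above it and 25 below, with a median of -0.09. The ends of the range were Cirbp at 0.60 and Ptbp1 at 0.38, and Ddx17 at -0.42. The value of Cirbp rests on 1 intron, with 36.0 expected reads in KH-CB19 0 h and 30.0 in DMSO 0 h, and that of Ddx17 on 2 introns. Puf60 at 0.26 and Khsrp at 0.20 were also on the high side, and Rbm39 and Tial1 at -0.31 were on the low side. No spread between libraries is known for these values, so they describe the 4 libraries and carry no test.

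**Figure D5:**
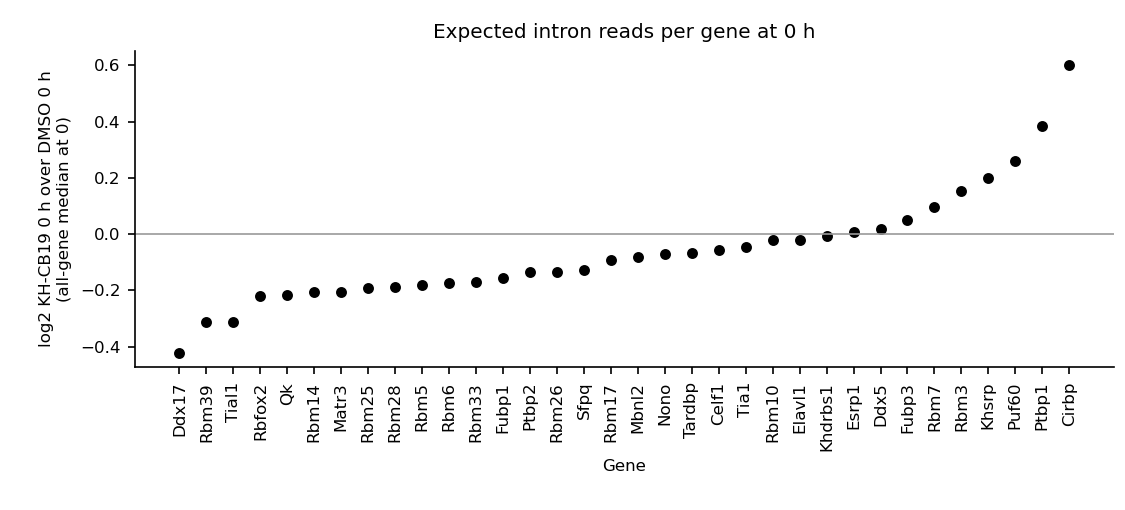
Log2 ratio of expected reads, KH-CB19 over DMSO at 0 h, for 34 genes, after subtraction of the median over all genes. Cirbp, from 1 intron, is highest at 0.60 and Ddx17, from 2 introns, lowest at -0.42.

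In length the detained introns of these genes had a median of 1368 bp (110 to 14094 bp, n = 40), and their other introns had a median of 1814 bp (127 to 57938 bp, n = 160). The same order held in the table, with 1562 bp for detained and 2044 bp for other introns. The longest of the 200, Celf1 intron 2 in the 5′ UTR, had 106.0 observed and 518.0 expected reads in KH-CB19 0 h, and 118.5 observed and 680.0 expected reads in DMSO 0 h. Of the 200 introns 175 could be matched by length to a GENCODE transcript, and 29 of the 40 detained ones. Of these 29, 23 lay between coding exons, 4 occurred in transcripts marked as NMD targets, 3 of them also in non-coding transcripts, and in no protein-coding one, 1 lay in a 3′ UTR and 1 in a non-coding transcript. Rbm7 introns 7 and 8 overlapped and held identical values, and both are included in the counts of introns.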

How the data were processed

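RNA from the 8 treated libraries was read as introns in polyadenylated transcripts. The authors' tools, per the submitters' processing notes, included DESeq, Cufflinks 2.1.1, TopHat2 2.0.9, Bowtie 1.0.0, bedtools 2.17.0 and SAMtools 0.1.19, on mouse build mm9. How introns were chosen, how detained ones were classed and how expected counts were made is not given in the sources used here. Per the file headers, the authors gave observed and expected mean counts at 0 h with a log2 ratio and adjusted p-value, and for detained introns a normalised mean signal per treatment at 2 h, its log2 ratio and adjusted p-value. The 0 h means were multiples of 0.5, as means of 2 unscaled counts are. The authors' adjusted p-values are taken to be from DESeq, the only statistical tool named. The authors wrote a word for low coverage where no value was given.

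No new test across introns was made. Counts, medians and SDs over introns were computed with pandas 2.3.3 and numpy 2.4.6, and the binomial interval with scipy 1.17.1, checked on simulated data. Named introns were all detained introns, and for each gene the highest and the lowest ratio of observed to expected reads in DMSO 0 h among introns whose observed or expected mean reached 50 reads. The members and lists were chosen with earlier results of these data known. Coordinates are mm9, counted from 1, and intron numbers are the authors' own. Introns were matched to GENCODE M21 (GRCm38) by gene, exact length and a constant offset within the gene, and sequences were read from its transcripts. Sequences of genes on mouse chromosome 18 were left out. Alternatives were a threshold of 0.01, a minimum log2 ratio of 1, a minimum mean of 50 reads, added pseudocounts of 0.1, 1 and 10, and genes in place of introns as units.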

Additional observations from a re-analysis of the deposited data

How the results depend on the processing

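The number of detained introns that fell at 2 h was 4 at the 0.05 threshold, 1 at 0.01 and 2 with a log2 ratio of at least 1 in size. With genes counted in place of introns, 33 genes held an intron above expected in KH-CB19 0 h (60 introns) and 21 one below (50 introns), and in DMSO 0 h 33 genes held one above (59 introns) and 27 one below (66 introns). The median log2 ratio of observed to expected in DMSO 0 h was 0.15 where the mean reached 50 reads, against -0.03 over all. The median at 2 h, which is not a called value, was -0.03 over introns and 0.02 over genes. The other settings moved counts by less than 1.5 times and medians by at most 0.1. The cause of these differences was not tested. No paired analysis was possible because the table holds group means and no column of a single library, and for the same reason leaving out each replicate, another normalisation and a count model were not run. Rbm25 intron 18 lay close to the threshold. Introns with about 20 reads could show only large differences.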
